A study of Mus musculus with 18 samples.

Results

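The Hox genes were examined across colon RNA libraries from mice labelled as wild type for Hif2a (WT, Hif2a +/+) and mice labelled Hif2a LFL (HIF2), with 9 libraries in each group. Every row of the expression table with a symbol of the form Hoxa, Hoxb, Hoxc or Hoxd followed by a number was taken, which gave 39 genes of 27131 rows. All mice were untreated and of the C57BL/6 strain, and according to the labels HIF2 mice overexpress the factor in their colon. In the series' design text the name of the allele is LSL. The sources used here do not give the driver of the allele, the age and sex of the mice, the segment of colon taken or how many mice the libraries stand for. The p-values therefore describe the spread over libraries, part of which may be technical. Libraries are named by group and replicate number, 0 to 8.

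Hox genes encode homeodomain transcription factors that give cells their position along the head-to-tail axis. In mammals they lie in 4 clusters, and within a cluster the order of the genes follows the order of their expression domains, with low-numbered genes active anteriorly and high-numbered genes posteriorly. Genes with the same number in different clusters are paralogues, called a paralogous group. In the gut, gene sets of this order are kept into adult life, in the epithelium and in the surrounding mesenchyme, and posterior members such as Hoxb13, Hoxa13 and Hoxd13 are known from the hindgut.

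Values are FPKM, fragments scaled to transcript length and library size, as deposited by the authors, so levels of different genes are compared per length. Differences are HIF2 minus WT on the log2(FPKM + 1) scale, which understates the change of low genes. Of the 39 Hox genes, 19 had a mean of at least 1 FPKM over the 18 libraries and were tested with limma together with all other such genes, 13976 in all, at a Benjamini-Hochberg adjusted p of 0.05. In 18 of the 19 the mean was at least 1 FPKM in both groups, and Hoxb8 passed the filter through WT. FPKM columns summed to between 686539 and 937505, and the depth in reads is not known.

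The presence of intestinal epithelium was checked on a gene of that tissue, which does not check the label of colon. Cdx2, a hindgut homeobox factor, lay between 35.1 and 101 FPKM over all 18 libraries. Epas1, which encodes HIF-2α, stood at 18.8 ± 3.09 FPKM in the WT libraries and 22.7 ± 6.36 FPKM in the HIF2 libraries (SD, n = 9 each), a difference of 0.24 (SE 0.14, limma adjusted p = 0.246). Epas1 was called in 1 of 30 other settings. HIF2 replicate 0 (35.9 FPKM) and replicates 6 to 8 (24.4 to 27.9 FPKM) lay above the highest WT library, at 23.0 FPKM. HIF2 replicates 1 to 5 (16.6 to 20.4 FPKM) lay inside the WT range. RNA of muscle and stroma was not even across libraries. The mean of 20 smooth muscle markers relative to the WT mean was 2.83 to 3.72 in HIF2 replicates 0 to 5, -0.49 to 0.41 in HIF2 replicates 6 to 8, 2.40 in WT replicate 3 and -1.05 to 0.48 in the other WT libraries. Summed over the markers this was 234 to 1756 FPKM in WT and 271 to 4879 FPKM in HIF2, with Lmod1 and Myocd listed at 0 in some WT libraries. Of the 20 markers, 19 rose in HIF2, of which Lmod1 and Myocd passed the filter through HIF2. Of 18 fibroblast markers 16 were tested and 15 rose, and of 13 epithelial markers 6 fell. By the same limma rule 11.0% of all 13976 genes were higher and 11.1% lower. Of 11 endothelial and 12 enteric neuron and glia markers, 10 and 5 were tested and rose, but 5 and 3 of these passed the filter through HIF2, so no count over them is read. In whole tissue, fewer cells of a type and less RNA per cell cannot be told apart.

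The 2 Hox genes that passed the test in HIF2 were Hoxd10 and Hoxa11. The 250 bases upstream of their RefSeq starts (build GRCm38.p6) are shown because the study concerns HIF-2α, whose core DNA motif is written ACGTG or GCGTG. Capitals mark matches to that core on either strand. The Hoxd10 window is chr2:74691641-74691890 on the plus strand and the Hoxa11 window is chr6:52245811-52246060 on the minus strand, each printed 5′ to 3′ along its own strand.
Hoxd10: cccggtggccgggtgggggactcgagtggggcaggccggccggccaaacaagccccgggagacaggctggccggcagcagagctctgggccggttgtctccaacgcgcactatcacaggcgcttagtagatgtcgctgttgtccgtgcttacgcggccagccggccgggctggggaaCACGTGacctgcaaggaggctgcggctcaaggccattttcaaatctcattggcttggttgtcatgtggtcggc
Hoxa11: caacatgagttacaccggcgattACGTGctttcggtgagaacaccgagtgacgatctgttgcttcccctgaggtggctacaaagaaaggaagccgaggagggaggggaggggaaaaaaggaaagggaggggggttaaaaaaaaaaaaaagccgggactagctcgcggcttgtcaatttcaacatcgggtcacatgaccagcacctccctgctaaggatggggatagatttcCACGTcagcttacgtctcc
The Hoxd10 window holds 1 stretch that matches on both strands, and the Hoxa11 window holds 2 separate matches. The Hoxa11 window also lies inside the span of Hoxa11os, which is transcribed from the opposite strand. Promoter entries matched 22 of the 39 Hox genes, with 24 windows, of which 41.7% held a match, against 38.6% of 32851 windows of the same length over all genes. The motif of Cdx factors, searched as TTTATTG or TTTATGG on both strands, was found in 2 of the 24 windows (Hoxd4 and Hoxb8, 8.33%, against 6.51% of all windows) and in neither sequence above. A match in these windows is a description of the letters and not a binding site.

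Colon RNA held Hox transcripts of 3 clusters. The Hoxb cluster had 8 tested genes of 10, the Hoxa cluster 7 of 11 and the Hoxd cluster 4 of 9. In the Hoxc cluster 0 of 9 genes were tested, and none of them exceeded 0.487 FPKM in any library. Hoxa4, Hoxb1, Hoxc12 and Hoxc13 were listed at 0 in all 18 libraries. The annotated span of Hoxa3, which averaged 1.75 FPKM, covers Hoxa4 on the same strand. Whether the sharing of reads between them bears on the 0 of Hoxa4 was not tested. Hoxa5 and Hoxa6 lie in the same span and were above 0 in 3 and 8 libraries. The other 16 genes outside the test had a value above 0 in at least 1 library.

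**Figure D1:**
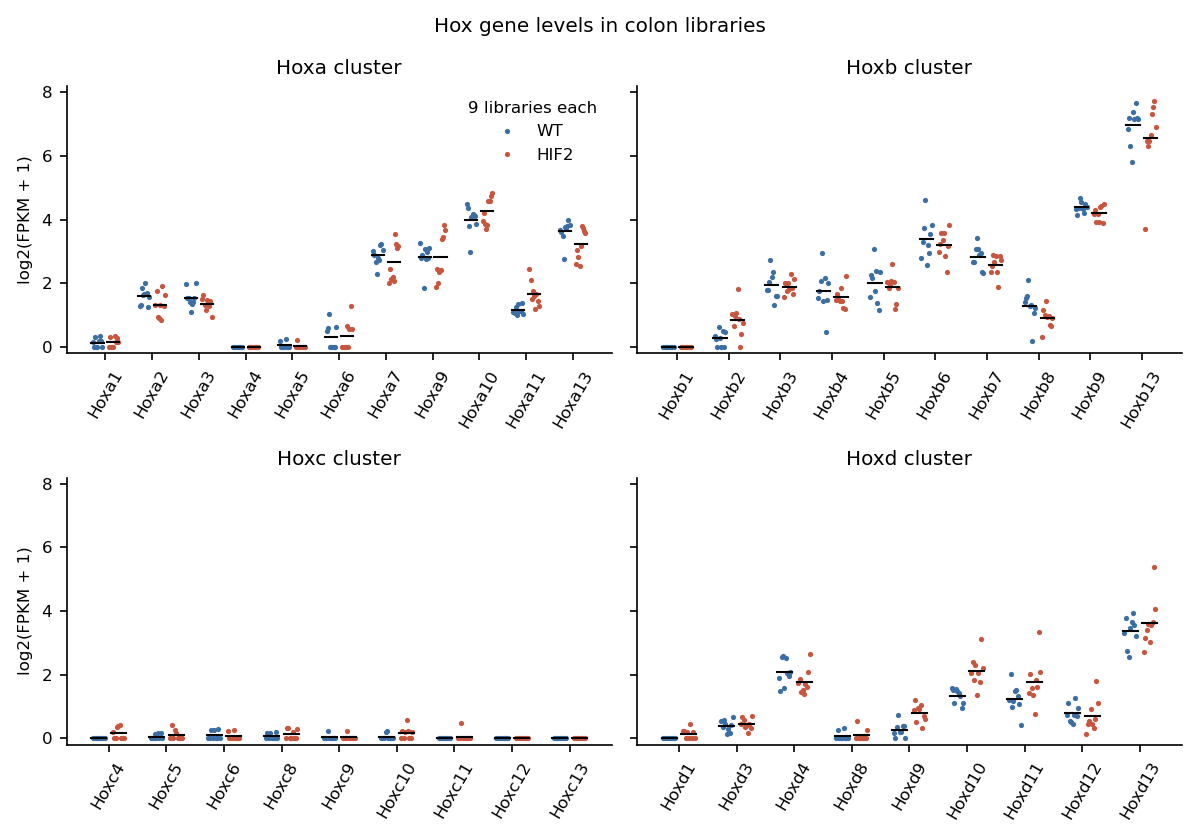
Levels of all 39 Hox genes by cluster, as log2(FPKM + 1), with 1 point for each library and a black bar at the mean of the 9 libraries of a group. Hoxb13 lies above every other gene on average (124 FPKM over 18 libraries), and the Hoxc panel stays under 0.487 FPKM throughout.

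Hoxb13 was the most abundant member. It was 132.5 ± 44.9 FPKM in WT and 116 ± 61 FPKM in HIF2 (SD, n = 9 each), and over the 18 libraries it averaged 124 FPKM against 18.8 for Hoxb9, next in order. Hoxb13 made up 31.4 to 65.5% of the summed FPKM of all Hox genes in WT and 12.7 to 62.1% in HIF2. Below it came Hoxb9, Hoxa10 (17.2 FPKM), Hoxd13 (11.5), Hoxa13 (10.2) and Hoxb6 (9.57), each overlapping its neighbours in this order in range over libraries. Hoxa9, Hoxa7 and Hoxb7 averaged between 5.66 and 6.66 FPKM, and the other 10 tested genes between 1.24 and 3.08 FPKM.

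Within clusters the levels did not change evenly along the gene order. In the Hoxb cluster Hoxb8 averaged 1.24 FPKM between Hoxb7 at 5.66 and Hoxb9 at 18.8. In the Hoxa cluster Hoxa11 averaged 1.76 FPKM between Hoxa10 at 17.2 and Hoxa13 at 10.2. Spans of 23 of the 39 genes, 11 of the tested ones, overlap another annotated gene in GENCODE M21, and the library kit named does not mark strand. Reads of overlapping genes, such as Hoxa11 and Hoxa11os (1418 shared bases, opposite strands) or Hoxb5 and Hoxb6 with Hoxb5os, cannot be told apart by strand.

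Between the groups, Hoxd10 and Hoxa11 rose in HIF2, 2 of the 19 tested Hox genes, and 0 fell (limma, threshold of 0.05 on the adjusted p). Over all 13976 genes, 11.0% were higher and 11.1% lower by the same rule, so the count of higher Hox genes is near the background. At an unadjusted p under 0.05 the counts were 2 higher and 1 lower, where 15.9% and 17.8% of all genes passed. An exact rank test over 48620 splits gave 2 and 0 after adjustment, beside 8.78% and 10.0% of all genes. Of the 19 differences, 14 were negative and 5 positive. Their median was -0.18, beside -0.02 over all genes tested. The share of negative differences over all genes is not given here, and the 19 genes are not independent. Their signs are therefore not read as a trend.

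Muscle RNA moved with the groups, so the counts were taken in 3 other ways. A fit with the mean of the smooth muscle markers as a covariate called 3 Hox genes higher (Hoxd10, Hoxa10 and Hoxd13) and 1 lower (Hoxb8), where 6.89% and 7.33% of all genes were called. HIF2 replicates 6 to 8 against the 8 WT libraries other than replicate 3, all of which had low muscle markers, gave 3 higher (Hoxd10, Hoxa10 and Hoxa9) and 0 lower, beside 8.99% and 10.1% of all genes. HIF2 replicates 0 to 5 against all 9 WT libraries gave 2 higher (Hoxd10 and Hoxa11) and 1 lower (Hoxa13), beside 12.4% and 13.4%. These 2 subsets of libraries were chosen after the data were seen. The subset with HIF2 replicates 6 to 8 was not even in other tissue RNA. Of 16 tested fibroblast markers 5 were higher there and 0 lower, and of 13 epithelial markers 1 was higher and 5 lower.

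**Figure D2:**
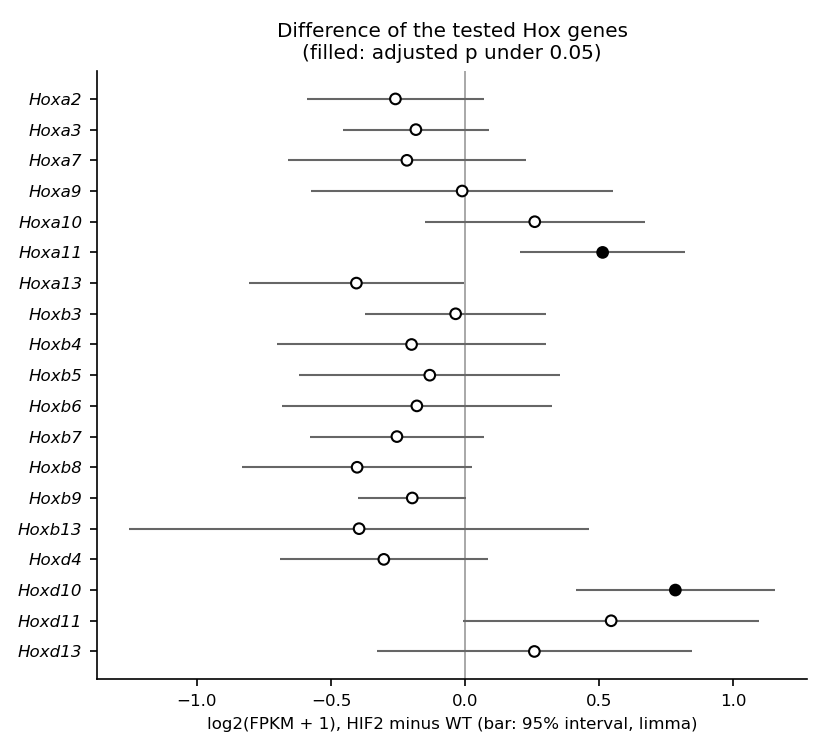
HIF2 minus WT difference in log2(FPKM + 1) for the 19 tested Hox genes, in cluster and gene order, with 95% intervals from limma. Filled points passed an adjusted p of 0.05, which were Hoxa11 at 0.51 and Hoxd10 at 0.78. All other intervals but that of Hoxa13 span 0, and the widest is that of Hoxb13, from -1.25 to 0.46.

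Hoxd10 is a posterior gene of the Hoxd cluster (GRCm38 chromosome 2, 74691924 to 74695105, plus strand) and acts in limb and spinal cord patterning. It ranged from 0.927 to 1.96 FPKM in WT (median 1.68) and from 1.57 to 7.72 FPKM in HIF2 (median 3.12). Of the 9 HIF2 libraries, 8 lay above the highest WT library, and HIF2 replicate 4 lay inside the WT range. The difference was 0.78 (SE 0.18, limma adjusted p = 0.0039). It was 0.66 without HIF2 replicate 7, the highest library. Hoxd10 was called in all 29 other settings in which it was tested (adjusted p from 0.000977 to 0.0219), among them HIF2 replicates 6 to 8 (1.06, adjusted p = 0.0114). Its span shares 2271 bases with Gm28309 on the same strand.

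Hoxa11 (chromosome 6, 52242106 to 52245810, minus strand) is known from limb, kidney and reproductive tract development. It ranged from 0.991 to 1.58 FPKM in WT (median 1.16) and from 1.28 to 4.40 FPKM in HIF2 (median 2.04). All 9 HIF2 libraries lay above the WT median, 7 of them above the WT range, and HIF2 replicates 0 and 1 were highest at 4.40 and 3.32 FPKM. The difference was 0.51 (SE 0.15, limma adjusted p = 0.0165). Hoxa11 did not pass after quantile normalization (0.35, adjusted p = 0.0999), nor beside the muscle covariate (0.43, adjusted p = 0.152), nor in HIF2 replicates 6 to 8 (0.28, adjusted p = 0.106). Hoxa11os, the overlapping RNA, stood at 48.1 ± 12.8 FPKM in WT and 31.3 ± 13.1 FPKM in HIF2 (SD, n = 9 each), a difference of -0.66 in the other direction that did not pass (SE 0.25, adjusted p = 0.0705) but did in 7 of 30 other settings, among them HIF2 replicates 0 to 5 (-0.99, adjusted p = 0.00842).

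Hoxd11, the next gene on the posterior side, ranged from 0.328 to 3.04 FPKM in WT (median 1.30) and from 0.687 to 9.04 FPKM in HIF2 (median 2.08). The ranges overlapped in 7 HIF2 libraries, and the difference of 0.54 did not pass (SE 0.26, adjusted p = 0.155) and was 0.35 without HIF2 replicate 7. Hoxd13, the last gene of the cluster, needed for digits and genitalia, ranged from 4.88 to 14.4 FPKM in WT (median 10) and from 5.53 to 40.9 FPKM in HIF2 (median 10.9). Its difference was 0.26 (SE 0.28, adjusted p = 0.567), and 0.93 in the fit that held muscle markers as a covariate (adjusted p = 0.0427). Without HIF2 replicate 7 the Hoxd13 difference was 0.04 (adjusted p = 0.928). HIF2 replicate 7 was the highest of the 9 HIF2 libraries for Hoxd10, Hoxd11 and Hoxd13 together, at 7.72, 9.04 and 40.9 FPKM. Hoxd12, between Hoxd11 and Hoxd13, averaged under 1 FPKM and was also highest in that library, at 2.44 FPKM.

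Hoxa13, which acts in hindgut, limb and urogenital development, ranged from 5.70 to 14.8 FPKM in WT (median 12.3) and from 4.86 to 12.9 FPKM in HIF2 (median 8.0). Of the HIF2 libraries, 7 lay above the lowest WT library, replicate 3, and all lay below the highest. The difference was -0.41 (SE 0.19, adjusted p = 0.144). It passed without WT replicate 3 (-0.52, adjusted p = 0.0391), with array weights (-0.56, adjusted p = 0.0157), with the replicate number as a block (-0.41, adjusted p = 0.0296) and over HIF2 replicates 0 to 5 (-0.62, adjusted p = 0.0303). In HIF2 replicates 6 to 8 it was -0.08 (adjusted p = 0.616).

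Hoxb13 (chromosome 11, 96194316 to 96197447, plus strand), the most posterior Hoxb gene, is known from prostate and distal colon epithelium. It ranged from 54.9 to 204 FPKM in WT (median 143) and from 12.1 to 211 FPKM in HIF2 (median 101). HIF2 replicate 0 stood at 12.1 FPKM, and the next lowest HIF2 library, replicate 2, at 79.1 FPKM. The groups overlapped, and the difference of -0.40 was smaller than its SE of 0.41 (adjusted p = 0.544). Without HIF2 replicate 0 the Hoxb13 difference was -0.04 (adjusted p = 0.939).

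Several Hox genes divided the HIF2 libraries, among them Hoxa7, Hoxa9, Hoxa10 and Hoxa13. Hoxa9, which also acts in blood progenitors, was 2.65, 4.45, 3.01, 4.09 and 4.29 FPKM in HIF2 replicates 0 to 4. It was 9.44, 9.88, 13.2 and 11.7 FPKM in HIF2 replicates 5 to 8. In WT it ranged from 2.57 to 8.64 FPKM (median 6.33), with replicate 3 lowest and the next library at 5.73 FPKM. The first 5 HIF2 libraries thus lay below all WT libraries but replicate 3, and the last 4 lay above every WT library. The group difference was -0.01 (SE 0.27, adjusted p = 0.984), whereas in HIF2 replicates 6 to 8 it was 0.69 (adjusted p = 0.00334).

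Hoxa10, a gene of the reproductive tract, followed the same order of libraries. It lay between 11.9 and 17.3 FPKM in HIF2 replicates 0 to 4 and between 23.0 and 27.8 FPKM in replicates 5 to 8, against 6.90 to 21.6 FPKM in WT (median 16.1). The difference was 0.26 (SE 0.20, adjusted p = 0.388), against 0.79 beside the muscle covariate (adjusted p = 0.00883), and the subset of HIF2 replicates 6 to 8 gave 0.60 (adjusted p = 0.0105). Hoxa7 was 2.97 to 4.49 FPKM in HIF2 replicates 0 to 4 and 7.68 to 10.7 FPKM in replicates 5 to 8, against 3.91 to 8.41 FPKM in WT, and differed by -0.22 (SE 0.21, adjusted p = 0.517). Hoxa13 was 4.86 to 8.0 FPKM in the first 5 HIF2 libraries and 11.1 to 12.9 FPKM in the last 4. HIF2 replicate 5 thus stood with replicates 6 to 8 for these 4 genes, while its smooth muscle mean of 3.67 stood with replicates 0 to 4, which had 2.83 to 3.72. The division was not particular to these 4 genes. Hoxb13 did not exceed 101 FPKM in HIF2 replicates 0 to 4 and lay above that in each of replicates 5 to 8. Hoxa11os was 12.7 to 28.7 FPKM in HIF2 replicates 0 to 4 and 38.85 to 47.2 FPKM in replicates 5 to 8. Outside the Hox clusters, the epithelial markers Epcam, Krt8, Krt19 and Vil1 divided the HIF2 libraries at the same place. Epcam was at most 775 FPKM in replicates 0 to 4 and at least 836 FPKM in replicates 5 to 8. For the other epithelial markers the 2 sets of libraries overlapped. This division was noticed in the values and has no test.

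**Figure D3:**
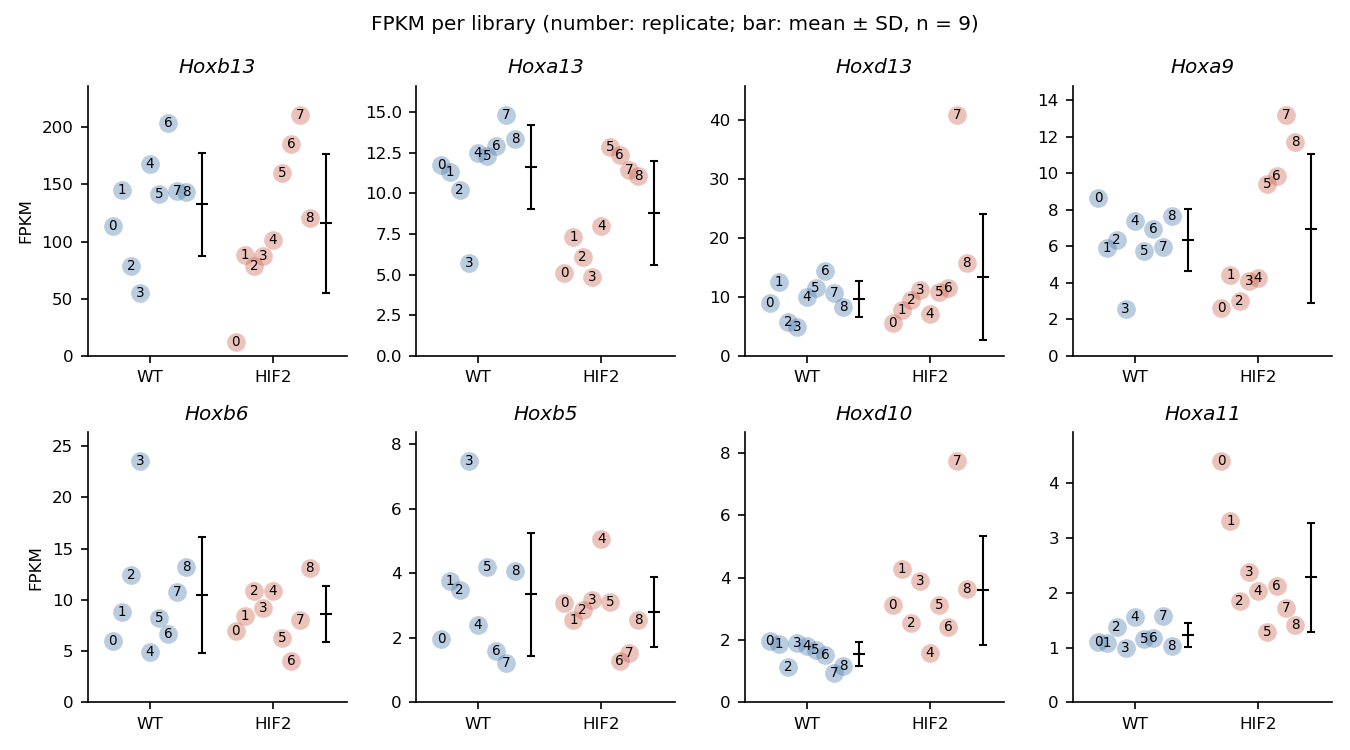
FPKM of 8 Hox genes in each library, with the replicate number inside each point and the mean ± SD of 9 libraries beside each group. Hoxa9 separates HIF2 replicates 0 to 4 (at most 4.45 FPKM) from replicates 5 to 8 (at least 9.44 FPKM), and WT replicate 3 is low for Hoxa9 and Hoxa13 and high for Hoxb5 and Hoxb6.

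The ratio of Hoxa10 to Hoxa13 in the same library averaged 1.34 ± 0.271 in WT libraries against 2.22 ± 0.38 in HIF2 libraries (SD, n = 9 each). It ranged from 1.01 to 1.84 in WT and from 1.66 to 2.83 in HIF2. The ranges overlapped in WT replicates 0 and 1 (1.84 and 1.71) and HIF2 replicates 4 and 5 (1.66 and 1.80). This ratio was chosen after the values were seen and has no test.

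Anterior and middle Hoxb genes did not pass the test, and their intervals were wide. Hoxb6, which acts in axial and limb patterning, ranged from 4.91 to 23.5 FPKM in WT (median 8.78) and from 4.08 to 13.1 FPKM in HIF2 (median 8.47). Its difference was -0.18 (95% interval -0.68 to 0.32, adjusted p = 0.655). Hoxb5, known from lung and enteric neural crest development, ranged from 1.22 to 7.47 FPKM in WT (median 3.49) and from 1.28 to 5.08 FPKM in HIF2 (median 2.88), and differed by -0.13 (95% interval -0.62 to 0.35, adjusted p = 0.745). WT replicate 3 was the highest WT library for both.

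Hoxb9, a gene of thoracic and limb patterning, was the steadiest of the abundant members. It ranged from 16.6 to 24.4 FPKM in WT (median 19.5) and from 14.0 to 21.4 FPKM in HIF2 (median 17.2), a difference of -0.20 (SE 0.10, adjusted p = 0.158). Hoxb8, known from neural and myeloid cells, was 1.59 ± 0.85 FPKM in WT and 0.895 ± 0.413 FPKM in HIF2 (SD, n = 9 each), a difference of -0.40 (SE 0.20, adjusted p = 0.177). In WT, Hoxb8 ranged from 0.122 FPKM (replicate 6) to 3.31 FPKM, and the 9 HIF2 values all fell within those limits. Without that library the Hoxb8 difference passed (-0.54, adjusted p = 0.0247), as it did after quantile normalization (-0.57, adjusted p = 0.0318) and beside the muscle covariate (-0.75, adjusted p = 0.0474). Hoxb8 passed the filter through WT, so it had to differ in this direction to be tested.

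Of the other genes of groups 2 to 7 that were tested, none passed. Hoxb3, Hoxb4 and Hoxb7 differed by -0.04, -0.20 and -0.25 (adjusted p = 0.908, 0.608 and 0.273). Hoxa2, which sets the identity of the second pharyngeal arch, Hoxa3, needed for thymus and parathyroid, and Hoxd4 differed by -0.26, -0.18 and -0.30 (adjusted p = 0.27, 0.352 and 0.271). Hoxa3 passed with quantile normalization only (-0.36, adjusted p = 0.0336).

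Among the 20 Hox genes under the filter, 15 stayed under 0.5 FPKM in every library. The other 5 were Hoxa6, Hoxb2, Hoxd3, Hoxd9 and Hoxd12. In the fit without a filter, which took 35 Hox genes, 4 were higher in HIF2 and 0 lower, where 10.6% of 22774 genes were higher and 6.83% lower. The 2 further genes were Hoxd9 and Hoxb2. Hoxd9, the neighbour of Hoxd10, ranged from 0 to 0.666 FPKM in WT and from 0.254 to 1.28 FPKM in HIF2, and differed by 0.52 (SE 0.12, adjusted p = 0.00549). Hoxb2, known from the hindbrain, ranged from 0 to 0.532 FPKM in WT and from 0 to 2.53 FPKM in HIF2, where replicate 4 was highest, and differed by 0.57 (SE 0.18, adjusted p = 0.0317). Hoxc4, Hoxc11 and Hoxd1 were listed at 0 in all WT libraries and above 0 in 4, 1 and 5 HIF2 libraries, at no more than 0.381 FPKM.

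Libraries of 1 genotype differed in their Hox profile. WT replicate 3 was the highest of the 9 WT libraries for Hoxb3, Hoxb4, Hoxb5, Hoxb6, Hoxb7, Hoxb8, Hoxb9 and Hoxd4, and the lowest for Hoxa7, Hoxa9, Hoxa10, Hoxa11, Hoxa13, Hoxb13 and Hoxd13. It was thus at an end of the WT range for 15 of the 19 tested genes, and no other WT library was at an end for more than 6. Among HIF2 libraries, replicate 0 was lowest for Hoxa7, Hoxa9, Hoxb3, Hoxb8, Hoxb13 and Hoxd13, and replicate 7 was highest for Hoxa9, Hoxb13, Hoxd10, Hoxd11 and Hoxd13.

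**Figure D4:**
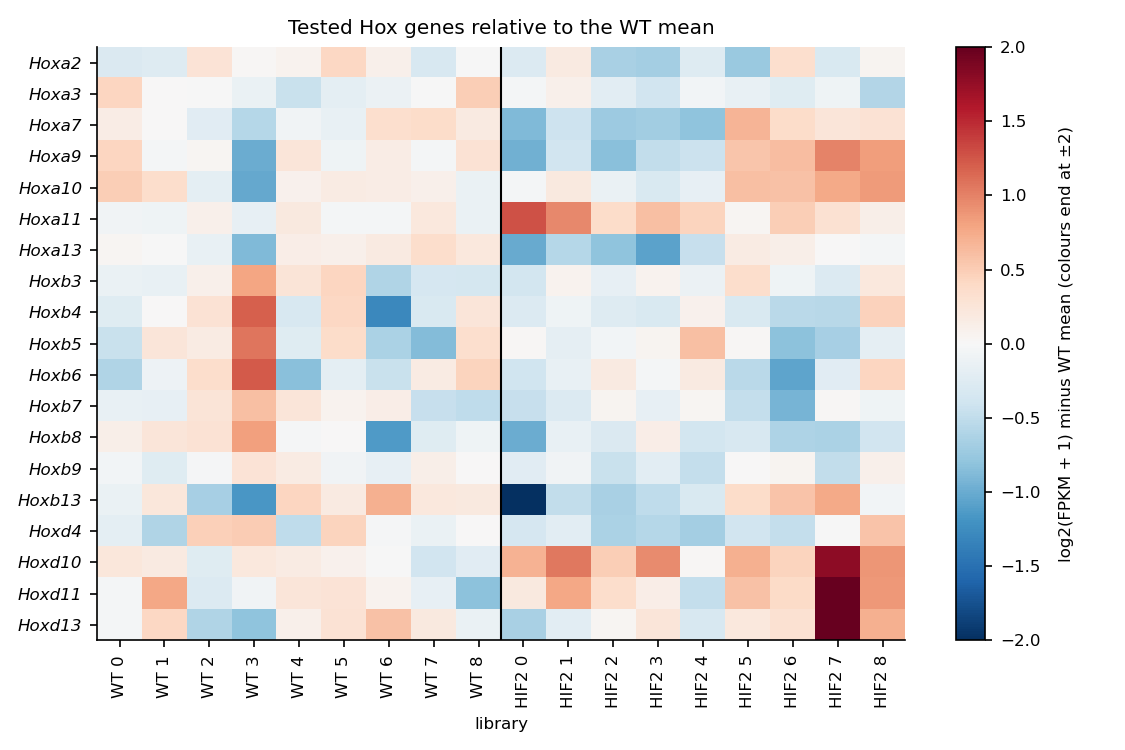
Levels of the 19 tested Hox genes in each library, as log2(FPKM + 1) minus the WT mean of the gene, with WT libraries left of the line and HIF2 libraries right of it. WT replicate 3 is red from Hoxb3 to Hoxb9 and blue for Hoxa7, Hoxa9, Hoxa10, Hoxa13 and Hoxb13, and HIF2 replicates 5 to 8 are red for Hoxa7, Hoxa9 and Hoxa10.

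The balance of posterior to middle Hoxb transcripts was described by the ratio of Hoxb13 to Hoxb6, chosen after the values were seen. In WT the ratio was 2.34 in replicate 3 and 6.33 to 34.1 in the other libraries (median of all 9, 16.5). In HIF2 it was 1.74 in replicate 0 and 7.26 to 45.4 in the others (median 9.53). Group 13 genes made up 37.4% of the summed Hox FPKM in WT replicate 3 and 23.8% in HIF2 replicate 0. The other WT libraries had 50.9 to 74.2% and the other HIF2 libraries 53.6 to 70.4%. Genes of groups 1 to 5 made up 16.9% and 14.8% in those 2 libraries and 3.28 to 10.7% in the others. The low ratio came with different levels, since Hoxb6 was 23.5 FPKM in WT replicate 3 and 6.96 FPKM in HIF2 replicate 0.

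**Figure D5:**
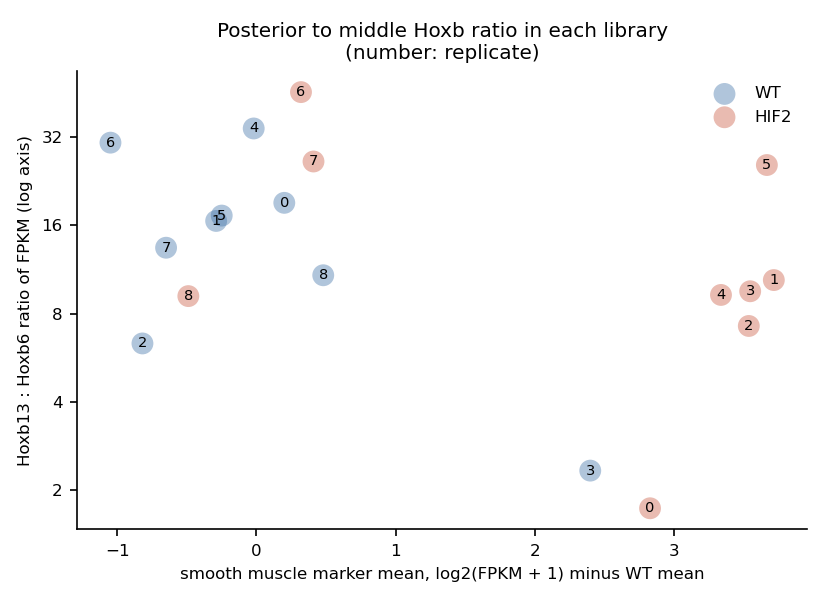
Ratio of Hoxb13 to Hoxb6 FPKM (log axis) against the mean of 20 smooth muscle markers relative to WT, with 1 point for each library and its replicate number inside. WT replicate 3 and HIF2 replicate 0 lie lowest at 2.34 and 1.74, and HIF2 replicate 5 lies at 25.6 with a smooth muscle mean of 3.67.

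HIF2 replicates 1 to 4, with smooth muscle means of 3.34 to 3.72, had ratios of 7.26 to 10.4, and HIF2 replicate 5, with 3.67, had 25.6. WT replicate 3, with 2.40, had 2.34, and HIF2 replicate 0, with 2.83, had 1.74. The 11 libraries with smooth muscle means of -1.05 to 0.48 had ratios of 6.33 (WT replicate 2) to 45.4 (HIF2 replicate 6). The part of muscle RNA in the ratio was not tested. No correlation is given, because the libraries fall into separate groups on the muscle axis.

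Factors that act with or upstream of Hox genes were examined from lists written with earlier results of these data known. TALE homeodomain proteins bind DNA as partners of Hox proteins, and 3 genes of this family are described here. Meis1, Meis2 and Pbx3 rose by 1.46, 1.09 and 0.93 (adjusted p = 0.00529, 0.0136 and 0.00294). Meis1 and Meis2 passed the filter through HIF2, with WT means of 0.508 and 0.322 FPKM, so these 2 had to differ to be tested. Beside the muscle covariate Meis1, Meis2 and Pbx3 were not called, at 0.24, 0.18 and 0.45 (adjusted p = 0.334, 0.659 and 0.164). In HIF2 replicates 6 to 8 they were not called either, at 0.31, 0.08 and 0.25 (adjusted p = 0.117, 0.73 and 0.394).

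Gut region factors include the Cdx proteins, which act on Hox genes in the hindgut. Nkx2-3, a factor of gut mesenchyme, rose by 1.09 (SE 0.20, adjusted p = 0.000838), and it too passed the filter through HIF2 (WT mean 0.764 FPKM). Gata6 fell by 0.34 and Cdx1 by 0.54 (adjusted p = 0.00211 and 0.00288). Cdx1 did not pass beside the muscle covariate (-0.37, adjusted p = 0.0938). Cdx2 fell by 0.60 (adjusted p = 0.00714).

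Retinoic acid is a regulator of Hox genes in the embryo. Of 18 listed genes of its synthesis, breakdown and receptors, 10 were tested, of which 3 rose and 2 fell (median 0.12). Over all genes, 11.0% were higher and 11.1% lower. Among the 3 that rose, Aldh1a2 and Aldh1a3 passed the filter through HIF2 and so had to differ to be tested. The count of higher genes is therefore not read against that share. Aldh1a2, a retinoic acid synthesising enzyme, was 0.359 ± 0.208 FPKM in WT and 2.58 ± 1.26 FPKM in HIF2 (SD, n = 9 each) and rose by 1.33 (SE 0.19, adjusted p = 0.000158). It passed the filter through HIF2. The receptor gene Rarb rose by 0.41 (adjusted p = 0.0318), but not in 8 of 29 other settings, among them the muscle covariate (0.22, adjusted p = 0.4). The receptor gene Rxra fell by 0.48 (adjusted p = 0.00271), and the enzyme gene Aldh1a1 fell by 1.65 (SE 0.47, adjusted p = 0.0169), but did not pass with array weights (-1.01, adjusted p = 0.0503) or in HIF2 replicates 0 to 5 (-0.89, adjusted p = 0.09). Aldh1a3, the remaining enzyme gene that passed, rose by 1.32 (adjusted p = 0.0465), a call that 20 of 29 other settings did not give. Aldh1a3 passed the filter through HIF2 (WT mean 0.864 FPKM), where replicate 0 stood at 55.5 FPKM and the next library at 4.01 FPKM, and without that replicate the difference was 0.86 (adjusted p = 0.00541).

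Polycomb and Trithorax proteins keep Hox genes silent or active. Of 26 listed genes, 23 had a row and were tested, 2 rose and 1 fell (median -0.01), beside the same 11.0% and 11.1% of all genes. Cbx6 rose by 0.98 and Rnf2 by 0.29 (adjusted p = 0.00424 and 0.0245), and neither passed beside the muscle covariate (adjusted p = 0.278 and 0.0573). Jarid2 fell by 0.32, from 13.2 ± 1.3 FPKM in WT to 10.4 ± 0.948 FPKM in HIF2 (SD, n = 9 each, adjusted p = 0.00293).

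Noncoding genes in the clusters and genes flanking them were also examined. Of 6 tested noncoding genes in the clusters, 0 passed (limma, 0 also by the exact rank test and beside the muscle covariate), and 2 had an unadjusted p under 0.05. Over all genes limma called 22.1% in either direction, and 15.9% were higher and 17.8% lower at the unadjusted threshold. The rank test called 8.78% and 10.0%, and the muscle covariate fit 6.89% and 7.33%. With only 6 genes the count of 0 is not read as a difference from these shares. The 2 highest rows, Mir196a-1 and Mir196b, which name short RNAs, were each listed at 0 in at least 1 library and at up to 1081 and 762 FPKM in others, so their means are not compared. Of 10 tested genes flanking the clusters, 3 rose and 1 fell, beside 11.0% and 11.1% of all genes. Ttll6, a tubulin modifying enzyme gene near the Hoxb cluster, fell by 0.74 (SE 0.17, adjusted p = 0.00522), but did not pass beside the muscle covariate (-0.65, adjusted p = 0.0734). Cbx5, Calcoco1 and Tax1bp1 rose by 0.21, 0.37 and 0.39 (adjusted p = 0.0327, 0.0348 and 0.0421), and did not pass in 10, 12 and 13 of 30 other settings.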

How the data were processed

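Polyadenylated RNA of mouse colon was measured in 18 libraries, for which the labels' protocols name version v2 of the TruSeq RNA kit. The values are FPKM as deposited by the authors, 1 column per library, and all 18 were used. The mm10 build is named in the submitters' processing notes, as are Cuffdiff 2.1.1 and Cufflinks, TopHat and TopHat2 2.0.9, FastQC, and Bowtie2 2.1.0.0, with no role or order. The annotation, the strand setting and the read depth are each not given in the sources used here. Low values did not resolve into whole fragments: among low genes the most common ratio to WT replicate 0 held at most 1.83% of them. Groups came from the labels. Values were analysed as log2(FPKM + 1) with limma 3.58.1 in R 4.3.3 (trended prior, 2-sided, Benjamini-Hochberg over all genes with a mean of at least 1 FPKM), tested on simulated data. The Hox genes, lists and tests were chosen with earlier results of these data known. Every Hox gene was accounted for, with ranges for those averaging at least 1 FPKM in either group. From each companion list up to 4 genes were named by smallest p, from both directions where both passed, or the 2 with the highest mean where none passed. Some genes of the lists of Hox partners and gut region factors, and the counts over those lists, are not reported here. Cdx2, Aldh1a3, Hoxa11os, Hoxd9 and Hoxb2 were named outside this rule after their values were seen. Alternatives were pseudocounts of 0.1 and 0.01, no filter or a mean of 5 FPKM, TPM scaling, quantile normalization, a replicate block, an exact rank test, a smooth muscle covariate, array weights and each library left out. Sequences are from RefSeq tables of GRCm38.p6 and coordinates, 1-based, from GENCODE M21 on GRCm38, the assembly of mm10. Figures used matplotlib 3.10.9.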

Additional observations from a re-analysis of the deposited data

Results flagged for a closer look

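Dixon's test was applied to the highest and the lowest library in 38 sets of values (19 genes in 2 groups). In 9 of the 38 sets, the gap from an end library to the nearest library passed the 95% critical value. About 1 in 20 groups of normally distributed values would pass it by chance, but FPKM were used here without a log scale. The check was not run on other genes, so the count of 9 is not read as an excess in Hox genes. The genes of a library are not independent of each other. WT replicate 3 stood apart in 4 of them: Hoxa9 was lowest there at 2.57 FPKM, with the next at 5.73, Hoxb4 highest at 6.74 FPKM (next 3.51), Hoxb5 at 7.47 FPKM (next 4.20) and Hoxb6 at 23.5 FPKM (next 13.2). HIF2 replicate 7 stood apart in 3: Hoxd10 at 7.72 FPKM (next 4.27), Hoxd11 at 9.04 FPKM (next 3.28) and Hoxd13 at 40.9 FPKM (next 15.7). Hoxb5 was 5.08 FPKM in HIF2 replicate 4 (next 3.18), and Hoxd4 was 5.31 FPKM in HIF2 replicate 8 (next 3.20).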

How the results depend on the processing

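The 2 higher calls, Hoxd10 and Hoxa11, became 4 of 35 genes with no filter, 0 of 9 with a filter at 5 FPKM, under which neither gene was tested, and 1 with quantile normalization. The count was 2 without any 1 library. The count of lower genes, 0, became 2 with quantile normalization (Hoxa3 and Hoxb8) and 1 with array weights, the smooth muscle covariate and HIF2 replicates 0 to 5, and ranged from 0 to 1 with 1 library left out, being 1 without WT replicate 3 (Hoxa13) or WT replicate 6 (Hoxb8). Hoxa9 reversed to 0.69 in HIF2 replicates 6 to 8. With the replicate number as a block, 2 Hox genes were higher and 1, Hoxa13, was lower (-0.41). The labels do not say that the numbers pair libraries, and same-numbered libraries correlated in their deviations at -0.033 to 0.112, none best with its own number. The causes of these changes were not tested, apart from the smaller number of genes tested under the filter at 5 FPKM. The share of all genes called is not given here for that filter, quantile normalization, array weights, the replicate block or 1 library left out. Hox counts in those settings therefore have no background beside them. The median difference of all genes was -0.021 as deposited, -0.056 with TPM scaling and -0.04 with quantile normalization. Depth is not known, so no counting interval can be given for Hox genes near 0.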
